A study of Mus musculus with 6 samples.

Results

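At 964 promoter regions of the mouse genome, every other library held fewer reads of captured methylated DNA than the library of mouse embryonic fibroblasts (MEF). They were chosen by their reads: a region listed as lower at 1 dpi than in MEF was kept if it overlapped, by 1 bp or more, a lower region in each of the comparisons of 3, 5 and 7 dpi and of primary neurons with MEF. Of 2971 distinct regions lower at 1 dpi, 964 met this rule, or 32.4% of them, and 1624 would meet it if the 7 dpi comparison were not required. The 964 stand for 967 entries and 942 genes, out of 24335 distinct promoter regions listed in all 10 tables of the series.

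The study followed DNA methylation by methylated DNA immunoprecipitation and sequencing (MeDIP-seq) in cultured cells of ICR mice, with 1 library for each of 6 groups. Induced neurons made from MEF were taken at 1, 3, 5 and 7 dpi, a time unit that the labels do not spell out, and the labels name no inducing agent. Primary neurons came from the hippocampus of 1-day-old pups and served as the positive control, and MEF came from E13.5 embryos and served as the negative control. The labels give a range of passages for every group, and no genotype or sex. Reads at promoters cannot show whether the labelled cell types were present, since the files hold DNA only. With 1 library per group, no value has a replicate check. In bulk cells, lower capture in all cells and loss of capture in a share of them cannot be told apart.

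DNA methylation in mammals sits mainly on the cytosine of CpG sites, where it is written by Dnmt enzymes and oxidised by Tet enzymes. Promoters rich in CpG are mostly free of it, whereas CpG-poor promoters of tissue-specific genes are often methylated in cells that do not use them. MeDIP captures DNA fragments with an antibody against methylated cytosine, so a read marks a captured fragment and not a methylation level at 1 site. Reads given for MEF are those of the 1 dpi tables, unless another table or a range over the 5 comparisons is named. Reads given for a gene are those of its region in the set, not of its whole promoter, unless a higher region is named. A gene may also have a region listed as higher where none is named.

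The reference sequence shows how different these promoters were in CpG content. Sequence was read from RefSeq promoter windows on GRCm38.p6, whose chromosomes have the coordinates of mm10, and only bases upstream of the transcription start site (TSS) that lie inside a region are printed, 5′ to 3′ on the strand of the gene, with CpG sites in capitals. The first stretch belongs to 4931408C20Rik, the region with the most MEF reads (chr1:26687461-26687680, minus strand), and holds 0 CpG sites in 220 bp. Sidt2 (chr9:45955301-45955499, minus strand) has 14 CpG sites in 199 bp, and Ykt6 (chr11:5955508-5955700, plus strand) has 23 in 193 bp. These are the stretch with the most MEF reads among those with CpG sites, and the one with the most CpG sites.
4931408C20Rik: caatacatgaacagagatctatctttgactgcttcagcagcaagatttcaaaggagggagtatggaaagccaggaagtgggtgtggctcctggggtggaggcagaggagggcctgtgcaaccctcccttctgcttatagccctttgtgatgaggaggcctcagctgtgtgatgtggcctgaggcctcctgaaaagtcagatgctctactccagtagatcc
Sidt2: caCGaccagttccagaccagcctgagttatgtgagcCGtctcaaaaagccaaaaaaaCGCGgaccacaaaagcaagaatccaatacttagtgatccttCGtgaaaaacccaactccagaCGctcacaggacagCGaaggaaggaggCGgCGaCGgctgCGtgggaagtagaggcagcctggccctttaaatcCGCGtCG
Ykt6: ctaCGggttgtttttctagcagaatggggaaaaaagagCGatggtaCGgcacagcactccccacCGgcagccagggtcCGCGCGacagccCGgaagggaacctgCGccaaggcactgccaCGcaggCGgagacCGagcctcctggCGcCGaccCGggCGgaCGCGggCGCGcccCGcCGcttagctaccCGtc

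At Sidt2, a gene for a lysosomal membrane protein, the region had 0, 1, 0 and 0 reads at 1, 3, 5 and 7 dpi and 0 in primary neurons, against 26 in MEF. At Ykt6, which encodes a SNARE protein of vesicle fusion, it had 1, 0, 0, 0 and 0 reads, against 17 in MEF. Both regions thus held at most 1 read outside MEF. Another region of Ykt6 was listed as higher than MEF at 7 dpi.

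A second set shows regulators of transcription. Zscan12 (chr13:21362601-21362819, plus strand) and Zfp566 (chr7:30090561-30090760, minus strand) are zinc finger genes with 9 CpG sites each, in 219 and 200 bp. Hoxd9 (chr2:74697581-74697762, plus strand), a homeobox gene of body patterning, has 9 CpG sites in 182 bp.
Zscan12: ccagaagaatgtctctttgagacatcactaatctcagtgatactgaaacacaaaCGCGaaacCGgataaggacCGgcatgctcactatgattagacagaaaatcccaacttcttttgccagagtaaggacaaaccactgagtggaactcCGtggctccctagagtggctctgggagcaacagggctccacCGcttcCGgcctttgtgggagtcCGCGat
Zfp566: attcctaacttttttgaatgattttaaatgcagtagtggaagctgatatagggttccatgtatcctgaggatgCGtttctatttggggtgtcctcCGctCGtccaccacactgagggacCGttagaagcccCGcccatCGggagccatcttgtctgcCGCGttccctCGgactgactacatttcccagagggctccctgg
Hoxd9: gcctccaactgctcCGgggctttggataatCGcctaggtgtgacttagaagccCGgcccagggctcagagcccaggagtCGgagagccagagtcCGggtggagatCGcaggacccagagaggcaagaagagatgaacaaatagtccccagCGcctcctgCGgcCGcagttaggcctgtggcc

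The Zscan12 region had 1 read at 1 dpi, 0 at 3, 5 and 7 dpi and 1 in primary neurons, against 20 or 21 in MEF. Another region of Zscan12 was listed as higher than MEF in primary neurons. The printed Zfp566 region, 1 of a pair at that gene, had 1 read at 1 dpi and 0 in the other 4 libraries, against 12 to 20 in MEF. At Hoxd9, all 5 libraries held 0 reads, against 13 to 15 in MEF.

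The third set shows receptor genes with few CpG sites, beside an immune receptor with more. Vmn2r23 (chr6:123702581-123702800, plus strand), a pheromone receptor, and Olfr1242 (chr2:89494361-89494580, minus strand), an odorant receptor, have 1 CpG site each in 220 bp. Ifnlr1 (chr4:135686207-135686360, plus strand), a subunit of the receptor for interferon lambda, has 7 in 154 bp.
Vmn2r23: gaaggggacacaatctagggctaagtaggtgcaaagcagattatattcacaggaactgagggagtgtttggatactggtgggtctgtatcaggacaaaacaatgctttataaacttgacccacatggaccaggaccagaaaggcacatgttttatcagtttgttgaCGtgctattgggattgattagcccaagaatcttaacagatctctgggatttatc
Olfr1242: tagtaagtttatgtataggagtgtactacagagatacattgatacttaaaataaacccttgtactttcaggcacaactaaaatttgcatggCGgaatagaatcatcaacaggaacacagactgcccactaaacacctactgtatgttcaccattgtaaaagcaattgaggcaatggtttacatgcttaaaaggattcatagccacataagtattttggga
Ifnlr1: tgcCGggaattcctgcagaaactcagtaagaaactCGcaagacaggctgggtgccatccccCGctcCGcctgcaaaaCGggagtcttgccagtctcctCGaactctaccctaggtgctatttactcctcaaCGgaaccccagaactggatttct

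Vmn2r23 had 0 reads in all 5 libraries, against 16 in MEF. Olfr1242 had 1 read at 1 dpi, 1 at 3 dpi and 0 in the other 3 libraries, against 17 in MEF. Ifnlr1 had 0 reads in all 5 libraries, against 18 in MEF. Other regions of Olfr1242 and Ifnlr1 were listed as higher than MEF in primary neurons. A comparison of CpG content with other regions was void: of the 78 regions that reach the window of their TSS by at least 100 bp, 49, or 62.8%, had a sequence in the table.

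In each library outside MEF, taken on its own, most of these regions held no read. In the 1 dpi library 589 of the 964 (61.1%) had 0 reads, in that of 3 dpi 775 (80.4%), of 5 dpi 633 (65.7%), of 7 dpi 929 (96.4%), and of primary neurons 864 (89.6%). Summed over all 964, the reads came to 633, 329, 561 and 51 in induced neurons of 1, 3, 5 and 7 dpi and to 202 in primary neurons, against 16285 to 16439 in MEF, depending on the table. By these sums the 7 dpi library was the emptiest in these regions, and those of 1 and 5 dpi held the most reads. The same reads chose the regions, and the highest q-values, given below, differed between the comparisons. The order of the libraries thus describes the set and is no independent result. Library totals were not analysed here, and differences in depth between libraries were not separated from these sums.

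In 475 regions, 49.3% of the set (exact 95% interval 46.1% to 52.5%, counting error only), all 5 libraries had 0 reads. In 920 regions (95.4%) no library outside MEF had more than 3 reads. These values chose the regions, so they describe the set and test nothing. Of the regions listed in each comparison, the lower ones made up 85.2% for 1 dpi, 72.3% for 3 dpi, 72.7% for 5 dpi, 40.8% for 7 dpi and 41.9% for primary neurons. All 5 comparisons use the same MEF library, and its reads count in each of them. Per the authors' deposited tables, the highest q-value of the 964 was 0.045 for 1 dpi, 0.0388 for 3 dpi, 0.0421 for 5 dpi, 0.00232 for 7 dpi and 0.0105 for primary neurons.

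**Figure D1:**
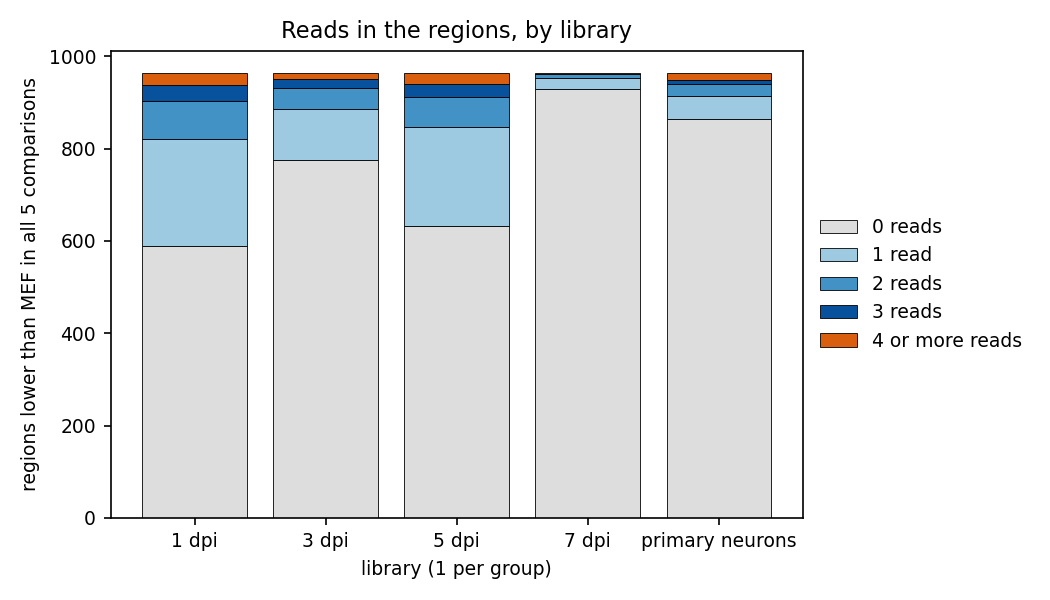
Stacked bars give the number of the 964 regions (vertical axis) with 0, 1, 2, 3, or 4 or more reads in each of the 5 libraries other than MEF (horizontal axis, 1 library per group). Regions with 0 reads are the largest class in every bar, from 589 at 1 dpi to 929 at 7 dpi.

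In MEF the regions held 11 to 45 reads, with a median of 16, by the values of the 1 dpi tables. The other 2007 regions lower at 1 dpi had 11 to 87 MEF reads with a median of 12. A count of 11 MEF reads was found in 12 of the 964 (1.24%), against 776 of the others (38.7%). The lists hold only regions that passed the authors' test, and at 7 dpi no region of the set had fewer than 13 MEF reads. The number of MEF reads was the same in all 5 tables for 690 of the 964 (71.6%), while start and end were the same in all 5 for 103 (10.7%).

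**Figure D2:**
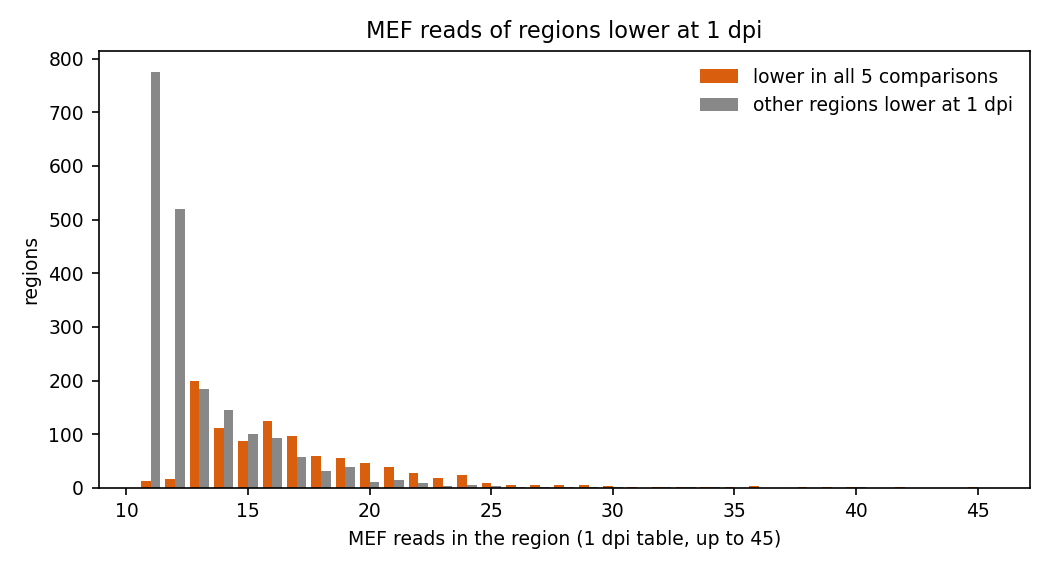
Bars give the number of regions (vertical axis) by their MEF reads in the 1 dpi table (horizontal axis, up to 45 reads), for the 964 regions lower in all 5 comparisons (left bar of each pair) and the other 2007 lower at 1 dpi (right bar). The 964 peak at 13 reads with 199 regions, and the others at 11 reads with 776.

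At the edge of the overlap rule, 8 regions shared 20 bp with a region of another comparison, the smallest step of the tables. Among them was Tmem33, with 0 reads at 1 dpi, against 11 in MEF, and a 5 dpi region with 0 reads, against 13 in MEF. Just outside was Gm9871, whose region had 0 reads at 1 dpi, against 13 in MEF, and directly adjoined, with 0 bp between them, a primary neuron region with 0 reads, against 13 in MEF. In 847 of the 964 (87.9%), the smallest of the 4 overlaps covered at least 50% of the 1 dpi region.

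The regions with the most MEF reads also kept some reads elsewhere. At 4931408C20Rik, an uncharacterised gene, the region had 14, 11, 10 and 2 reads at 1, 3, 5 and 7 dpi and 4 in primary neurons, against 42 to 53 in MEF. At 3 dpi a region listed as higher directly adjoined the lower one there, with 40 reads, against 7 in MEF. A region shared by 4930467E23Rik and Gm21119 on chromosome 8 had 9, 10, 8 and 4 reads at the 4 times and 4 in primary neurons, against 34 to 42 in MEF. That region is uncertain, since both genes belong to a family of near-identical copies and reads may be shared among them.

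Grb2 encodes the adaptor that links receptor tyrosine kinases to Ras signalling. Its region, on chromosome 11 from 115706481 to 115706860 in mm10 and centred 1927 bp downstream of the TSS, had 4, 3, 6 and 5 reads at 1, 3, 5 and 7 dpi and 7 in primary neurons, against 42 in MEF in every table. It held the most reads of any region of the set at 7 dpi and in primary neurons. Reads, scaled as deposited, were 10.5-fold lower at 1 dpi (counting interval 3.81 to 40.3) and 6.43-fold lower in primary neurons (2.86 to 17.0) than in MEF. Since reads below MEF chose the regions, these folds and those given below describe the set, may be too large, and test nothing.

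Ppp2r5d, a regulatory subunit of the phosphatase PP2A, had a region 1318 bp upstream of its TSS with 1, 5, 2 and 1 reads at 1, 3, 5 and 7 dpi and 6 in primary neurons, against 32 in MEF in the 3 dpi table and 38 in the other 4. Sertad4, a gene of the SERTA domain family, had a 440 bp region on chromosome 1 from 192853181 to 192853620, 1653 bp upstream. It held 1, 0, 1 and 0 reads at the 4 times and 1 in primary neurons, against 19 in MEF in the 3 dpi table and 39 in the other 4. The Sertad4 region was thus nearly empty in every library outside MEF, where that of Ppp2r5d kept 5 reads at 3 dpi and 6 in primary neurons. Other regions were listed as higher than MEF, for Sertad4 at 7 dpi and in primary neurons and for Ppp2r5d in primary neurons. Reads in the 440 bp Sertad4 region were 39.0-fold lower at 1 dpi than in MEF, with a counting interval of 6.60 to 1579.4.

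Iws1 works with Spt6 in transcription elongation. Its region had 3, 0, 2 and 2 reads at 1, 3, 5 and 7 dpi and 3 in primary neurons, against 24 to 39 in MEF. Zmym1, a MYM-type zinc finger gene, had 5, 3, 1 and 0 reads and 5 in primary neurons, against 36 in MEF in every table. Psma5, an alpha subunit of the proteasome core, had 1 read at 1 dpi and 0 in the other 4 libraries, against 31 in MEF in every table. No library outside MEF reached 8 reads in any of these regions. In primary neurons, however, a region listed as higher overlapped that of Psma5, with 17 reads, against 1 in MEF.

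Among the remaining regions with the most MEF reads, Olfr299 had 2 reads at 1 dpi and 0 in the other 4 libraries, against 13 to 36 in MEF. Ctnna3, a catenin of cell junctions in heart muscle, had 2, 3, 5 and 0 reads at the 4 times and 6 in primary neurons, against 33 in MEF in every table. Hsd17b11, a steroid dehydrogenase, had 1, 3, 2 and 0 reads and 0 in primary neurons, against 24 to 34 in MEF. D030040B21Rik, Slx4ip, Gm3258 and Gnb1l completed the list, with 31 to 36 MEF reads. Slx4ip had 4, 4, 6 and 2 reads at the 4 times and 4 in primary neurons, against 33 to 35 in MEF. Reads were left in all 5 libraries at 10 of the 964 regions, among them those of Slx4ip, Smarcd2, a subunit of the SWI/SNF remodelling complex, and Abcg2, an efflux transporter.

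**Figure D3:**
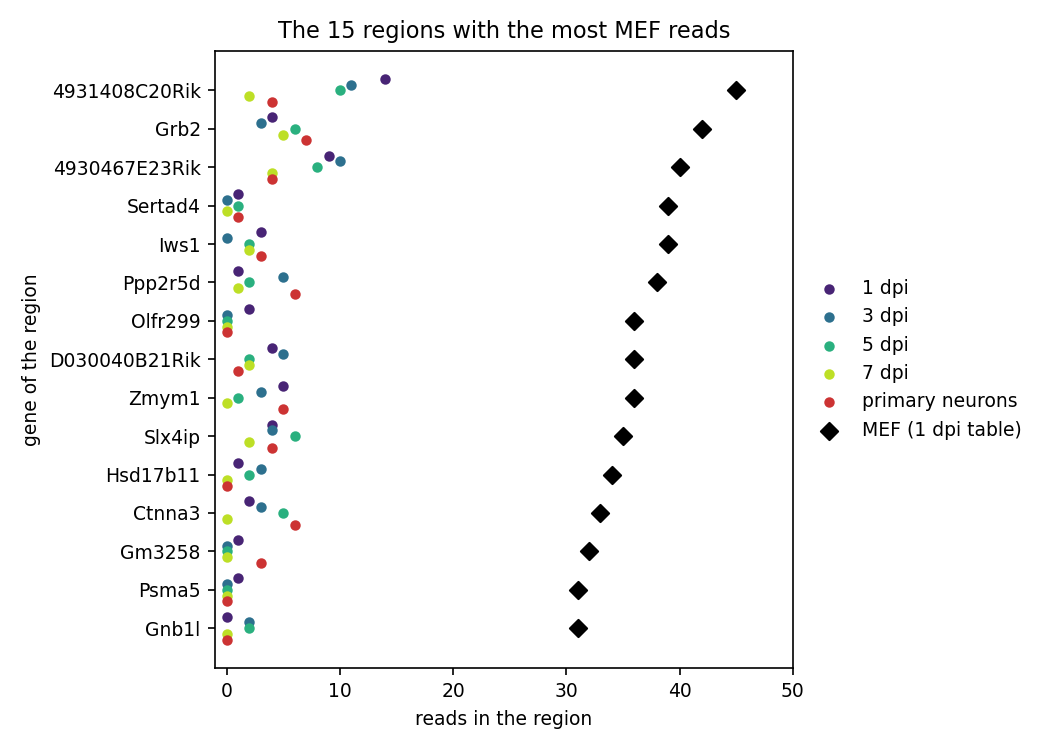
Points give the reads (horizontal axis) in 1, 3, 5 and 7 dpi induced neurons, in primary neurons and in MEF (black diamonds, 1 dpi table) for the 15 regions with the most MEF reads, named by gene down the page. The 5 other libraries sit at 0 to 14 reads in every region, and MEF at 31 to 45.

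At the empty end, Dnajc25, a DnaJ co-chaperone gene, had the most MEF reads of the 475 regions with 0 reads in all 5 libraries, at 29 in the 1 dpi table and 14 in that of primary neurons. Next came 4930524O05Rik with 24, then Coq7, an enzyme of ubiquinone synthesis, with 23, and Nacc1, a transcriptional regulator of the BTB family, with 21. Cd48, an adhesion molecule of leukocytes, Dohh, the enzyme that completes hypusine synthesis, and Abcb5, a transporter, had 20 each. With 0 reads a fold is only a bound. With a floor of 3 reads at 1 dpi and the 29 MEF reads taken as exact, Dnajc25 was at least 9.67-fold below MEF. This bound leaves out the counting error of the MEF reads, unlike the intervals given for other regions.

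The fewest MEF reads were 11. Igfbp5, an insulin-like growth factor binding protein, had 0 reads in all 5 libraries, against 11 in MEF at 1 dpi and 13 in the other 4 tables. Prrc2c had 0 reads in all 5, against 11 to 15 in MEF. Regions of Vmn1r234 and Olfr1040 also had 0 reads in all 5 libraries, against 11 to 15 in MEF for Vmn1r234 and 11 to 31 for Olfr1040. Region boundaries differ between the tables.

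Of 69 genes for neuronal structure and synapses, 15 were lower at 1 dpi and 7 of these 15 were lower in all 5 comparisons, a share of 46.7% (exact interval 21.3% to 73.4%), beside 33.8% of all genes lower at 1 dpi. Ncam1, the neural cell adhesion molecule, had a pair of regions on opposite sides of its TSS. The one 1169 bp downstream had 2, 0, 3 and 0 reads at 1, 3, 5 and 7 dpi and 0 in primary neurons, against 26 or 27 in MEF, and the one 1861 bp upstream had 0 reads in all 5, against 15 in MEF. The downstream region was 13.5-fold lower at 1 dpi than MEF (3.39 to 117.1).

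Gad2, which makes the transmitter GABA, also had a pair of regions, 984 and 1564 bp downstream. The first had 2 reads at 1 dpi and 0 in the other 4 libraries, against 18 in MEF, and the second had 0 in all 5, against 13 in MEF. Ina, the neurofilament protein alpha-internexin, had 3, 2, 1 and 0 reads at the 4 times and 0 in primary neurons, against 16 to 22 in MEF. Mapt, the microtubule protein tau, had 1 read at 5 dpi and 0 in the other 4 libraries, against 17 in MEF. Snap25, a SNARE of synaptic vesicle release, and Ank2, a membrane adaptor, had 0 reads in all 5, against 15 in MEF. Syt4, a synaptotagmin, also had 0 in all 5, against 13 in MEF. In primary neurons a region listed as higher overlapped that of Syt4, with 16 reads, against 0 in MEF.

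Other lists of neuronal genes gave 3 members or fewer each. Of 13 transmitter receptors lower at 1 dpi, 3 were lower in all 5 comparisons (23.1%): Gabrb1 of the GABA-A receptor, Chrna6 of nicotinic receptors and the serotonin receptor Htr4. Gabrb1 had 1 read at 1 dpi and 0 in the other 4 libraries, against 17 in MEF, and Chrna6 and Htr4 had 0 in all 5, against 13 in MEF. Of 12 genes in the list of voltage-gated and potassium channels that were lower at 1 dpi, 3 were in the set (25%). These were Kcna10, Kcns2 and Kcnq1ot1, which is in the list although it encodes no channel. Kcna10 had 1 read at 1 dpi and 0 elsewhere, against 20 in MEF. Of 7 neuronal fate factors lower at 1 dpi only Pax7 was, with 1 read at 1 dpi and 0 in the other 4, against 12 to 17 in MEF. Pax7 is best known from muscle stem cells and the dorsal neural tube.

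Among 6 fibroblast and mesenchymal genes lower at 1 dpi, Col5a2, a fibrillar collagen chain, was lower in all 5 comparisons. It had 1 read at 1 dpi and 0 in the other 4 libraries, against 16 in MEF in the 3 dpi table and 22 in the other 4. The collagen Col6a6 had 0 reads in all 5 libraries, against 13 in MEF. At 3 dpi a region listed as higher overlapped that of Col6a6, with 12 reads, against 0 in MEF. Of the muscle genes lower at 1 dpi, 4 of 8 were in the set (50%, exact interval 15.7% to 84.3%): the calcium release channels Ryr1 and Ryr2, Actn2 and Tnnt3, with 0 or 1 read in each of the 5 libraries, against 13 to 16 in MEF. Germline genes gave Gdf9, an oocyte growth factor, and Tex15, and imprinted genes gave Kcnq1ot1, Ddc and Sgce. Their regions in the set held at most 1 read in each library outside MEF, against 13 to 17 in MEF. Kcnq1ot1 also had a region listed as higher than MEF at each of 1, 3, 5 and 7 dpi. Of the 2 genes of the methylation machinery and the 6 cell cycle genes lower at 1 dpi, 0 were in the set (exact intervals up to 84.2% and 45.9%). All 3 intervals include the 33.8% of all genes.

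Olfactory receptors gave the most member genes of the lists. The set held 63 olfactory receptor genes, 36.4% of the 173 lower at 1 dpi (29.2% to 44.1%), and 18 vomeronasal receptor genes, 39.1% of 46 (25.1% to 54.6%). With 2 taste receptors they made up 83 of the 942 genes (8.81%), beside 227 of all 2784 genes lower at 1 dpi (8.15%). Their shares were near the 33.8% of all genes. Of 66 olfactory receptor regions, 28 had 0 reads in all 5 libraries (42.4%), and of 19 vomeronasal regions 13 did (68.4%). MEF reads ran from 11 to 36 over all 66 olfactory regions and from 11 to 24 over all 19 vomeronasal regions, whether empty elsewhere or not. Sequences of these families are alike, so reads may be shared among copies.

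Zinc finger genes gave 21 of 57 (36.8%), microRNA and small RNA genes 26 of 74 (35.1%), ubiquitin ligases and proteases 13 of 36 (36.1%) and solute carriers 12 of 41 (29.3%). The solute carrier list includes Slc7a6os, annotated as a probable nuclear localization protein of RNA polymerase II. Immune ligands and receptors gave 16 of 39 (41%), among them the chemokines Ccl1, Ccl4 and Cxcl10 with 0 reads in all 5 libraries, against 13 to 15 in MEF. Each of these chemokine genes also had a region listed as higher than MEF. This was at 7 dpi for Ccl1 and Ccl4, at 3 and 5 dpi for Cxcl10, and in primary neurons for Ccl1 and Cxcl10. Ribosomal protein genes gave 9 of 18 (50%), of which 8 encode proteins of the mitochondrial ribosome, and genes of RNA polymerase II transcription 7 of 14 (50%), among them the Mediator subunits Med9, Med12, Med22 and Med27. The exact intervals of these shares, drawn in the plot of gene lists, include 33.8%, the share of all genes. By type, 843 of the 942 genes (89.5%) were protein coding, 58 (6.16%) long noncoding and 24 (2.55%) microRNA genes, beside 87.9%, 7.44% and 2.06% of the other 1842 genes lower at 1 dpi.

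Of the microRNA genes, Mir208b, which lies in a heart myosin gene, had a region with 4, 1, 6 and 1 reads at 1, 3, 5 and 7 dpi and 0 in primary neurons, against 29 in MEF. Mir17, of the Mir17 to Mir92 cluster, had 1 read at 1 dpi, 1 at 5 dpi and 0 in the other 3 libraries, against 17 in MEF. Mir141, a microRNA of epithelial cells, and Mir143, one of smooth muscle, had 0 reads in all 5, against 18 and 13 in MEF.

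**Figure D4:**
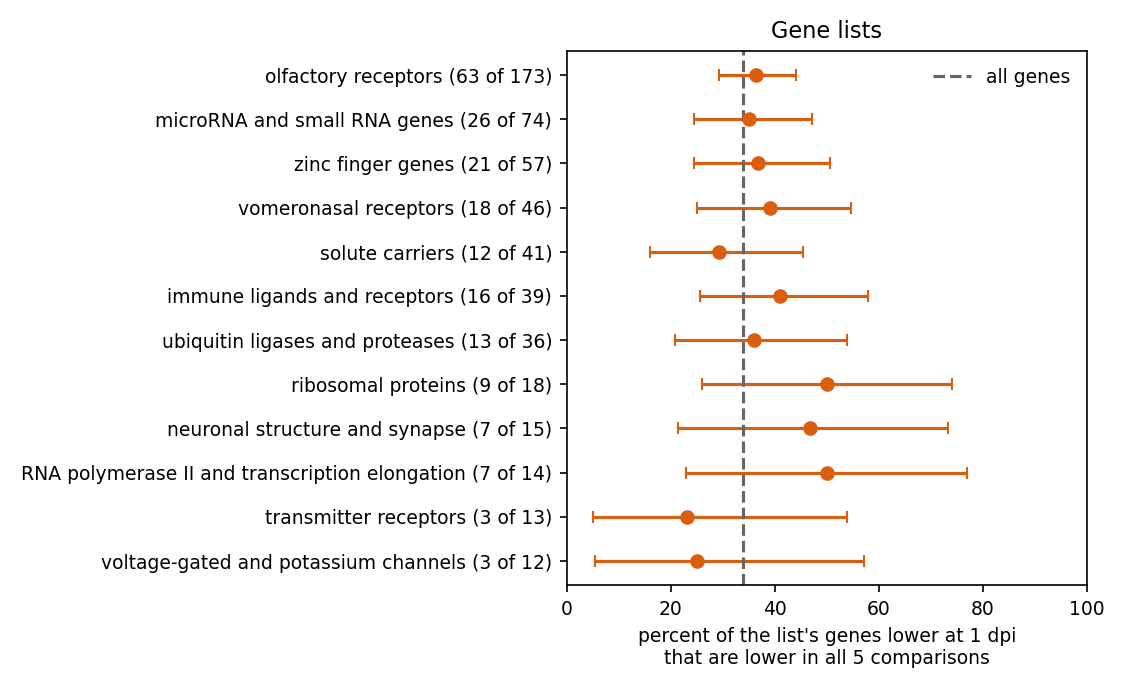
Points give, for each gene list with 12 or more genes lower at 1 dpi, the percent of those genes that were lower in all 5 comparisons (horizontal axis), with exact 95% intervals for counting error. The dashed line is the 33.8% of all genes, and every interval includes it.

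Regions lay on both sides of the TSS in near-equal number. Of the 964, 439 (45.5%) were upstream, 52 (5.39%) across the TSS and 473 (49.1%) downstream, beside 46.8%, 4.93% and 48.2% of the other 2007 regions lower at 1 dpi. Centres within 500 bp of the TSS made up 19.7% of the set, beside 18.1% of the others. The exact counting intervals of the first 3 shares, 42.4% to 48.7%, 4.05% to 7.01% and 45.9% to 52.3%, include the values of the others. Whether a region lies in an exon or an intron is not given in the tables.

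**Figure D5:**
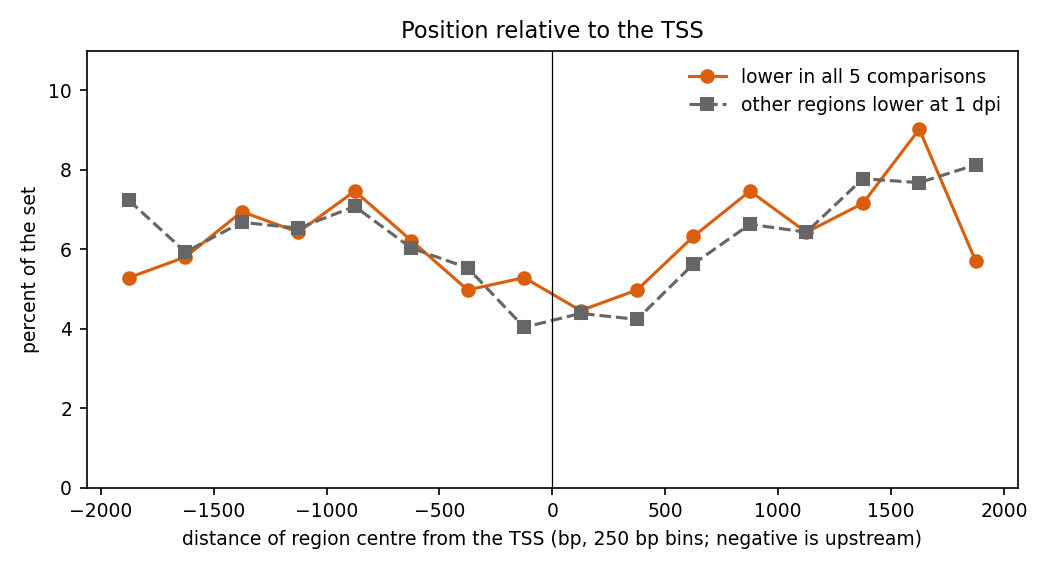
Lines give the percent of each set (vertical axis) by the distance of a region's centre from the TSS, in 250 bp bins (horizontal axis, negative is upstream), for the 964 regions lower in all 5 comparisons (solid line) and the others lower at 1 dpi up to 2000 bp from the TSS (dashed line). Both sets run along the whole window, with fewer regions near the TSS than at 1000 to 1750 bp downstream.

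In length, the 964 ran from 200 to 640 bp in steps of 20 bp, with a median of 300 bp, and the others lower at 1 dpi had a median of 260 bp. In the set a length of 380 bp was the most common, in 274 of the 964 (28.4%), beside 277 of the other 2007 (13.8%). Among those 2007 the most common length was 200 bp, in 384 regions, beside 104 of the 964. The longest region lay in Trim23, a ubiquitin ligase gene, with 640 bp, and had 1, 2, 2 and 0 reads at 1, 3, 5 and 7 dpi and 0 in primary neurons, against 11 to 30 in MEF. Olfr972, with 540 bp, had 0, 3, 3 and 0 reads and 2 in primary neurons, against 16 to 28 in MEF. Chromosome 7 held the most, 86 of the 964 (8.92%), beside 9.72% of the others, and chromosome Y held 0.

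Regions of the set lay close together at 9 places, where 3 or more followed each other at gaps of at most 100 kb. Some of these places count a gene more than once, as Dbnl on chromosome 11. No count of such places is given for the other regions lower at 1 dpi, so they are not read as a trait of the set. On chromosome 13, from 27058081 to 27200720, 4 regions belonged to the prolactin family: Prl, Prl3d2, Prl3d3 and Prl3c1. Olfactory receptor clusters gave 5 of the 9 places, with 4 regions each on chromosome 10 (Olfr796, Olfr802, Olfr804 and Olfr808) and on chromosome 9 (Olfr968, Olfr970, Olfr972 and Olfr976). Genes of the cornified envelope, Lce6a, Lce1e and Lce1h, made up 1 on chromosome 3. In all, 25 genes had more than 1 region, and 3 regions were listed for 2 genes each, among them Cbx6 with Npcd. Cbx5, which encodes heterochromatin protein HP1 alpha, had a pair of regions, 1 with 3, 0, 1 and 0 reads at the 4 times and 2 in primary neurons, against 19 in MEF, and 1 with 0 in all 5 libraries, against 14 in MEF.

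Peaks that the authors called in each library were set beside the regions. Of the 964 regions, 0 overlapped a peak of 1, 3 or 5 dpi or of primary neurons (0%, exact interval up to 0.382%), and 2, at Mrpl38 and Klhl2, overlapped a 7 dpi peak. Of the other 2007 regions lower at 1 dpi, 0, 2 and 0 overlapped a peak of 1, 3 and 5 dpi, 6 (0.299%) one of 7 dpi and 5 (0.249%) one of primary neurons, so overlap was rare in both sets. In MEF 26 did (2.70%, 1.77% to 3.93%), beside 7 of the other 2007 (0.349%, 0.140% to 0.717%). The MEF reads that chose the regions also make the MEF peaks, so this is no independent support. Of the 964, 936 overlapped a peak in no library.

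The highest fold enrichments among these 26 MEF peaks, per the authors' deposited table, were 7.95 at Grb2, 7.58 at Ppp2r5d, and 7.39 at both Sertad4 and Zmym1. Next came A530050N04Rik with 7.21, 4933432I03Rik with 6.85, Olfr299 with 6.84, Slx4ip with 6.65, D030040B21Rik with 6.56 and Hsd17b11 with 6.47. The lowest was 3.73 at BC037034, whose region had 3, 2, 4 and 1 reads at 1, 3, 5 and 7 dpi and 2 in primary neurons, against 24 in MEF. Every one of the 26 was classed as promoter in that table.

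At 52 of the 964 regions (5.39%), a region listed as higher than MEF in another comparison overlapped the 1 dpi region as well. Of these, 8 were in the comparison of 3 dpi, 6 in that of 5 dpi, 12 in that of 7 dpi and 32 in that of primary neurons, some regions in several. The share was near the background: of the other 2007 regions lower at 1 dpi, 105 (5.23%) overlapped a higher region, 13, 4, 30 and 67 of them in the same 4 comparisons. Among the 964, in 46 of the 58 such pairs the lower and the higher region of the same comparison shared bases, and in 52 the higher region had 0 MEF reads. The chromosome X region of Dusp9, a phosphatase of MAP kinases, overlapped a higher region in 3 comparisons, though at 7 dpi the lower and the higher region shared no bases. At 5 dpi its lower region, from 73640181 to 73640440, had 0 reads, against 17 in MEF, while the higher one, from 73640401 to 73640760, had 18 reads, against 0 in MEF.

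At Appl1, an endosomal adaptor gene, the lower region had 0 reads at 7 dpi, against 17 in MEF, and the higher region 11, against 0 in MEF, with 80 bp in common. In primary neurons the same gene had 0 reads, against 17 in MEF, beside a higher region with 14, against 0 in MEF. Lonrf2 had a pair of regions lower in all 5 comparisons, and between them, in primary neurons, a higher one with 15 reads, against 0 in MEF. At Chrna6 in primary neurons the lower region had 0 reads, against 13 in MEF, and the higher one 15, against 0 in MEF, with 80 bp in common. At these promoters lower and higher regions were thus listed side by side in 1 comparison, and whether reads lay at different positions was not tested.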

How the data were processed

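Per the submitters' processing notes, CASAVA, Bowtie2 2.1.0 and the mm10 build were used; neither the peak caller nor the test and limits of the promoter tables are named in those notes or in the labels. In the promoter tables of 1, 3 and 5 dpi the authors deposited whole read counts. In those of 7 dpi and primary neurons they deposited a scaled signal, in which a read counts 1.15 for 7 dpi, beside 0.866 for MEF, and 0.966 for primary neurons, beside 1.04 for MEF. After division by these steps, 100% of values up to 20 reads lay within 0.1 of a whole number. Reads named are whole reads, and folds use the scaled values. The p-values and q-values are the authors' own, as is the fold (ratio) enrichment of a peak with its −log10 q-value and tag count in the deposited peak lists, called per library.

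Regions were matched by overlap of 1 bp in Python 3.11.15 with numpy 2.4.6, pandas 2.3.3 and scipy 1.17.1, and the matching was checked with bedtools 2.31.1 and tested on simulated data. Figures were drawn with matplotlib 3.10.9. Where a region overlapped 2 regions of another table (8 of 964), the one with the larger overlap was used. Distances to the TSS run from a region's centre, as deposited. Each group has 1 library, so no test was run. Intervals are exact Clopper-Pearson 95% intervals for shares and exact conditional intervals for ratios of reads. Intervals and the floor of 3 reads used where a library has 0 cover counting error alone, as PCR copies could not be told from independent molecules. Depth per library was not analysed here.

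The rule for regions named was: the 15 with the most and the 5 with the fewest MEF reads, the 10 with 0 reads in all 5 libraries and the most MEF reads, the 5 longest, genes of 28 lists (9 by symbol, 19 by symbol pattern), the 10 with the highest MEF peak enrichment, genes with several regions and regions of several genes. Regions beside higher ones, at the edge of the rule or with reads in all 5 libraries, and the printed sequences, were chosen after their values were seen. The members and the lists were chosen with earlier results of these data known. RefSeq symbols give the gene types; 3 of 942 genes were not matched. Of the regions that the rule names, 1 is not reported here.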

Additional observations from a re-analysis of the deposited data

How the results depend on the processing

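The count of 964 regions stayed within 1.5 times under 8 of the 11 alternatives tried. It was 102 with a p-value of at most 1e-05 in all 5 comparisons and 200 with at least 20 MEF reads. It rose to 1624 when the 7 dpi comparison was not required, and to between 1022 and 1238 without each of the other comparisons. The median length of 300 bp became 380, 370 and 270 bp with the p limit, with 20 MEF reads and without regions of 380 bp. The median of 16 MEF reads became 21, 22 and 15. The share with 0 reads in all 5 libraries, 49.3%, became 27.5%, 5.5% and 53.3%. The share across the TSS became 8.82% with the p limit and 3.48% without regions of 380 bp, and the share downstream 43.1% with the p limit. The 26 regions with a MEF peak became 10 under each of these 2 settings. Higher limits on p or on MEF reads keep regions with more MEF reads by construction. Dropping the 7 dpi comparison can only add regions, and leaving out regions of 380 bp, which lie above the median, cannot raise the median length. For the other moves the cause was not tested. Of 46 alternative values, 29 stayed within 1.5 times of a count or within the 95% counting interval of a median or share.

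CpG content was not recomputed, because too few regions had a sequence. No paired analysis was possible because each group has 1 library. Most regions rest on 13 to 20 MEF reads, and at a single region counts of 0 to 3 reads cannot separate the other 5 libraries. A promoter that is not listed has no value in the tables.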

Other observations

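Many genes of the set had another region that was listed as higher than MEF. This was so for 19 of the 942 genes in the comparison of 1 dpi, 69 in that of 3 dpi, 32 in that of 5 dpi, 134 in that of 7 dpi and 210 in that of primary neurons. In 1 or more comparisons 357 did (37.9%), beside 783 of the other 1842 genes lower at 1 dpi (42.5%), and 0 did in all 5. Ank2 was among them at 7 dpi, and the uncharacterised 1700064J06Rik at 1, 3 and 5 dpi. So were Ctnna3 at 7 dpi and in primary neurons, Olfr299 at 3 dpi and in primary neurons, and Prrc2c and Mir143 in primary neurons. Abcb5 was among them at 7 dpi, and Kcna10 at 5 dpi.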
